A study of Rattus norvegicus with 24 samples.

Results

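The Nr4a genes code for 3 orphan nuclear receptors, Nr4a1 (also called Nur77), Nr4a2 (Nurr1) and Nr4a3 (Nor-1). They were chosen by gene symbol, with their difference between trained and contralateral muscle already known, so that difference is described here and not tested. They account for 3 of 15273 gene symbols and 4 of 20027 transcripts in the transcript table. Nr4a1 has 2 transcripts in it, Nr4a1-201 (Rnor_6.0 chr7:142912316-142920217, plus strand) and Nr4a1-202 (chr7:142905758-142916018, plus strand), both protein coding. Nr4a2-201 lies at chr3:43111240-43119160 on the minus strand and Nr4a3-201 at chr5:63781801-63821638 on the plus strand.

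RNA was sequenced from the tibialis anterior, the main dorsiflexor of the ankle, of 12 male Wistar rats. In the left hind limb an implanted pulse generator stimulated the nerve supply in 1 session a day so that the muscle contracted against partly activated plantarflexors (SpillOver resistance training). Training lasted 2, 10, 20 or 30 days with 3 rats at each time point, and muscles were taken 1 h after the last session. Every trained muscle had thus both recent exercise and a training history, and their effects cannot be told apart here. The unstimulated right tibialis anterior of the same rat was the contralateral control, which gave 24 muscles. All groups came from animals that carried the implant, and no sham-operated muscle was analysed here, so effects of implant or exercise on the opposite limb are shared by the controls.

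Nr4a receptors are transcription factors whose ligand pocket is filled by side chains of the protein, so their activity is held to depend largely on how much receptor is made. They are immediate early genes, switched on within minutes by calcium, cyclic AMP and kinase signals, and they bind DNA as monomers or dimers, Nr4a1 and Nr4a2 also as partners of retinoid X receptors. In skeletal muscle they are known for their response to exercise and beta-adrenergic stimulation and for regulating genes of glucose, glycogen and lipid use.

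The promoters are shown because both genes belong to a class defined by fast induction through short DNA elements. Nr4a1 and Nr4a2, 2 of the 3 members, had an entry in the RefSeq promoter table (build GRCr8, which is not the build of the expression files). The 250 bases before the start of Nr4a1 are chr7:134259888-134260137 on the plus strand, and those of Nr4a2 are chr3:62104888-62105137 on the minus strand. Capitals mark the heptamer TGCGTCA, a cyclic AMP or AP-1 type element.
Nr4a1: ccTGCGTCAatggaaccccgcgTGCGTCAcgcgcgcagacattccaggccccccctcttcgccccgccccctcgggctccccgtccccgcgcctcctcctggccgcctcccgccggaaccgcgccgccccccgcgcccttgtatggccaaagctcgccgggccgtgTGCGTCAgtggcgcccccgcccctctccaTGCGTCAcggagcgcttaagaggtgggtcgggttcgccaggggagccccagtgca
Nr4a2: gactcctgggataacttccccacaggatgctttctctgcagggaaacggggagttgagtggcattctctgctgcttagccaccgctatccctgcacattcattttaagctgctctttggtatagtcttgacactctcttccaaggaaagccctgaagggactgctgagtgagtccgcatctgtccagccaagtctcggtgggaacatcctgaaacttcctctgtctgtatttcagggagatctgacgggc

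The Nr4a1 stretch held 4 copies of TGCGTCA, starting 248, 228, 84 and 55 bases before the start site and all on the plus strand. Among 33469 promoter stretches of the same length, 1.66% held this heptamer at least once on either strand and 0.0538% held it at least 2 times. The Nr4a1 stretch was 74.8% G and C and the Nr4a2 stretch 52%, beside a median of 51.2% over all stretches. The search also covered TGACGTCA (found in 1.59% of stretches), TGACTCA (4.05%) and AAAGGTCA, the element that Nr4a receptors themselves bind as monomers (1.24%), on both strands. None of these 3 was in either stretch, and TGCGTCA was not in the 250 bases before Nr4a2. For each gene the first listed start was used. It was not matched to the transcripts named above, and any other start of these genes was not looked at. The motifs were chosen after the Nr4a1 sequence had been seen, and a match is a description of these letters.

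Values were taken as transcript abundances of the TPM type, which are corrected for length. They were rescaled between muscles, and transcripts of a gene were summed. The deposited totals are the same in every muscle, so sequencing depth cannot be read from them. Mitochondrial transcripts took 23.7% to 44.6% of the values, and the contralateral muscle of rat 1 at 30 days stood apart from the other controls with 44.2%. The skeletal muscle markers were at 82140 to 95170 in sum in contralateral and 57930 to 98140 in trained muscles, with 7 of 8 markers in the table. Nothing in the labels says that the muscles were handled in separate batches.

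Groups that do not overlap were common among the 11196 genes that passed a filter on low values. All 3 trained muscles were above all 12 contralateral muscles for 2 of the 3 Nr4a genes at 2 days, 3 at 10, 3 at 20 and 2 at 30 days, and for 8.57%, 10%, 8.23% and 7.48% of all genes. They were above the 3 contralateral muscles of the same day for 3 of 3 Nr4a genes at each time point, and for 17.1%, 16.7%, 16.5% and 14.1% of all genes. In 12 of 12 rats the trained muscle had the higher value of all 3 Nr4a genes, as it did for 8.45% of all genes. Nr4a3 was the member with all 12 trained above all 12 contralateral muscles, as were 2.93% of all genes. The Nr4a genes were chosen with this contrast known, so nothing is read from these shares.

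Nr4a1 was the most abundant of the 3 genes in every muscle, and it was higher in the trained muscle of every rat. At 2 days it was 88.1, 195.3 and 72.1 in the contralateral and 382.3, 306.2 and 265.2 in the trained muscles of rats 1, 2 and 3. At 10 days it was 123.6, 113.6 and 66.4 in contralateral and 286.6, 320.2 and 302.0 in trained muscles. The contralateral muscle of rat 2 at 2 days was the highest of the 12 controls. At 20 days contralateral muscles had 82.6, 77.6 and 37.5 and trained muscles 310.9, 425.4 and 253.7. At 30 days contralateral muscles had 54.7, 56.1 and 58.4 and trained muscles 258.4, 230.2 and 174.7. Every trained muscle was above all 3 contralateral muscles of its own day. At 2, 10 and 20 days the trained muscles were also above all 12 contralateral muscles, and at 30 days the muscle at 174.7 was below the contralateral value of 195.3 at 2 days.

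The mean of Nr4a1 was 85.5 ± 42.4 (SD, n = 12) in contralateral muscles and 293 ± 66.3 (SD, n = 12) in trained muscles. In order of their means the contralateral groups ran from 30 days (56.4) through 20 days (65.9) and 10 days (101.2) to 2 days (118.5). The trained groups followed from 30 days (221.1) through 10 days (302.9) and 2 days (317.9) to 20 days (330.0). Only the trained groups at 30 and 10 days were neighbours in this order without overlapping values. On the log2(value + 1) scale the trained minus contralateral difference, against all 12 controls, was 2.00, 1.94, 2.04 and 1.47 at 2, 10, 20 and 30 days (SE 0.30 at each). Against the controls of the same day it was 1.54, 1.62, 2.36 and 1.93 (SE 0.32).

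A muscle holds several cell types, and fewer cells of a type and less RNA per cell cannot be told apart in whole tissue. Markers of macrophages summed to 9.95 to 27.3 in contralateral and 28.6 to 75.3 in trained muscles, with 9 of 9 in the table and none of them at 0 in all muscles. Markers of fibroblasts summed to 90.1 to 277.9 and 323.2 to 1035, with 7 of 7 in the table, and 4 of 7 T cell markers in the table to 0.571 to 2.26 and 1.81 to 7.29. The macrophage and fibroblast sums did not overlap between the arms and the T cell sums did, and the part of these cells in the Nr4a values was not tested. Neutrophil markers summed to at most 2.85 in any muscle (4 of 7 in the table, with Mpo, Elane and Camp missing). Endothelial markers, 7 of 8 in the table, overlapped between the arms with 41.4 to 61.4 and 46.8 to 96.7. Mural cell markers (57.4 to 93.8 and 56.4 to 96.2), Schwann cell markers (11.4 to 31.4 and 14.1 to 39.9) and satellite cell markers (20.8 to 39.5 and 20.2 to 35.9) overlapped too.

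Nr4a3 had the largest fold difference of the 3 genes. At 2 days it was 2.80, 3.32 and 1.46 in contralateral and 53.3, 35.4 and 23.1 in trained muscles. At 10 days it was 3.90, 5.94 and 4.11 in contralateral and 61.6, 48.8 and 78.2 in trained muscles. The 10-day controls were the highest controls, and the 2-day trained muscles held the lowest trained values. At 20 days contralateral muscles had 1.07, 0.490 and 2.10 and trained muscles 64.4, 78.6 and 62.9. At 30 days contralateral muscles had 1.06, 0.856 and 1.48 and trained muscles 72.8, 66.9 and 60.1. The lowest trained muscle, at 23.1, was well above the highest contralateral muscle, at 5.94, so the arms did not overlap at any time point.

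The mean of Nr4a3 was 2.38 ± 1.65 (SD, n = 12) in contralateral and 58.8 ± 16.6 (SD, n = 12) in trained muscles. The order of the group means was contralateral at 30 days (1.13), 20 days (1.22), 2 days (2.53) and 10 days (4.65), then trained at 2 days (37.3), 10 days (62.9), 30 days (66.6) and 20 days (68.6). Neighbours in this order overlapped except contralateral 2 and 10 days and contralateral 10 and trained 2 days. The log2 difference against all 12 controls was 3.58, 4.37, 4.51 and 4.47 at the 4 time points (SE 0.33). It ranked 18, 5, 2 and 1 among the 11196 genes at the 4 time points, and these ranks describe a gene picked for this difference. Against the controls of the same day the difference was 3.40, 3.49, 5.03 and 4.99 (SE 0.27).

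Nr4a2 was the least abundant member and stayed below 1 in all 12 contralateral muscles. At 2 days it was 0.371, 0.555 and 0.0676 in contralateral and 1.42, 0.847 and 0.803 in trained muscles. At 10 days it was 0.851, 0.749 and 0.484 in contralateral and 1.12, 1.60 and 1.45 in trained muscles. The arms lay closest to each other on these early days. At 20 days contralateral muscles had 0.279, 0.370 and 0.0738 and trained muscles 3.94, 3.60 and 2.08. At 30 days contralateral muscles had 0.0885, 0.109 and 0.0980 and trained muscles 1.59, 2.21 and 2.31. Trained muscles were above the controls of their own day throughout and above all 12 controls at 10, 20 and 30 days, while at 2 days 2 of them were just below the highest contralateral value of 0.851 at 10 days.

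The mean of Nr4a2 was 0.341 ± 0.273 (SD, n = 12) in contralateral and 1.91 ± 0.996 (SD, n = 12) in trained muscles. Group means ran from contralateral 30 days (0.0986) through 20 days (0.241), 2 days (0.331) and 10 days (0.695) to trained 2 days (1.02), 10 days (1.39), 30 days (2.04) and 20 days (3.21), and every pair of neighbours overlapped. All 3 Nr4a genes passed the filter, which asked for 3 or more muscles with a value of 1 or above. Nr4a2 passed it through 10 trained muscles alone, and Nr4a3 had 10 and Nr4a1 12 contralateral muscles at or above 1. The log2 difference of Nr4a2 from all 12 controls was 0.61, 0.85, 1.65 and 1.20 at the 4 time points (SE 0.17). The added 1 is larger than the contralateral values, and with 0.1 added instead the differences were 1.575, 2.01, 3.12 and 2.53. Against the controls of the same day the differences at 10 and 30 days were 0.495 and 1.46 (SE 0.18).

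**Figure D1:**
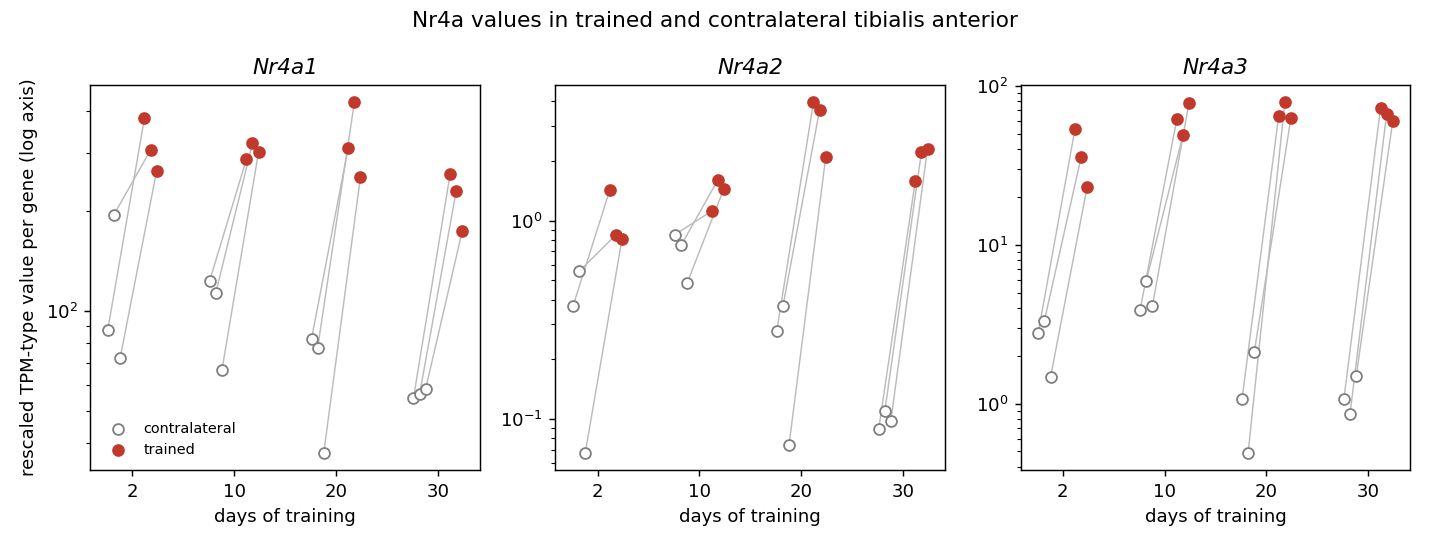
Rescaled TPM-type value (log axis) of Nr4a1, Nr4a2 and Nr4a3 against days of training, with open circles for contralateral and red circles for trained muscles and a grey line joining the muscles of each rat. Every line rises from contralateral to trained, and for Nr4a3 the lowest trained muscle (23.1) is above the highest contralateral muscle (5.94).

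Ratios of the trained to the own contralateral value spread widely between rats. For Nr4a1 they were 1.57 to 4.34 at 2 days, 2.32 to 4.55 after 10 days, 3.76 to 6.77 after 20 days and 2.99 to 4.73 after 30 days. The ratio of 1.57 belonged to the rat with the contralateral value of 195.3. For Nr4a3 the 3 ratios were 19.05, 10.7 and 15.8 at 2 days and 15.8, 8.23 and 19.04 at 10 days. At 20 days they were 60.4, 160.3 and 29.97, and at 30 days 68.4, 78.2 and 40.6. All ratios of Nr4a3 at 2 and 10 days lay below those at 20 and 30 days, an order that 1.78% of 10979 genes with no contralateral value of 0 also had. For Nr4a2 the ratios were 3.83, 1.53 and 11.9 at 2 days and 1.31, 2.14 and 2.99 at 10 days. At 20 days they were 14.1, 9.75 and 28.2, and at 30 days 17.9, 20.3 and 23.5, on contralateral values of 0.0676 to 0.851, which make these ratios coarse. Those at 2 and 10 days were all below those at 30 days, as they were for 4.43% of genes, and nothing is read from these shares either.

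**Figure D2:**
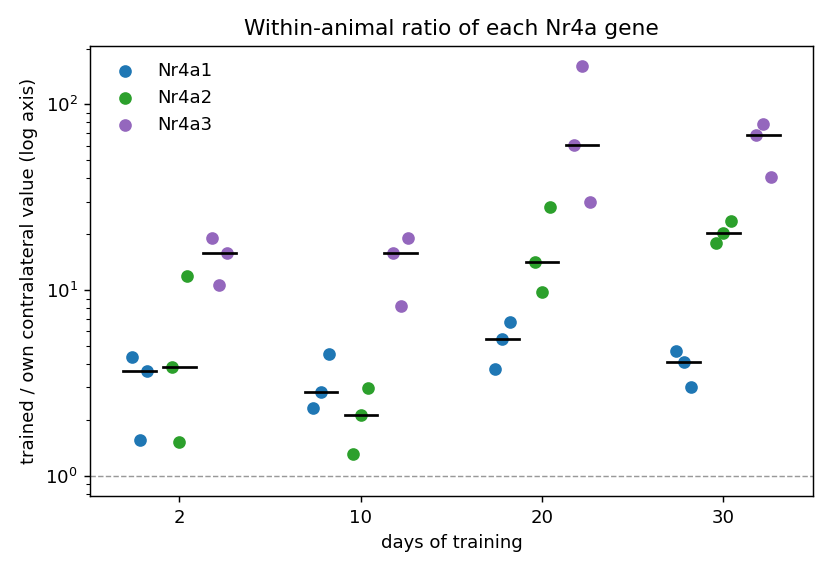
Ratio of the trained to the own contralateral value (log axis) against days of training, 1 point per rat, with a black bar at the median of 3 rats and a dashed line at 1. The medians of Nr4a3 are 15.8, 15.8, 60.4 and 68.4, and those of Nr4a2 are 14.1 at 20 days and 20.3 at 30 days.

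The second question was whether the trained level itself moved between time points. With the controls pooled, this contrast is the difference between trained minus contralateral differences, the values by which the genes were chosen. Nr4a2 also passed the filter on low values through 10 trained and 0 contralateral muscles. Its trained values at 2 days were 1.42, 0.847 and 0.803, so the filter rested mainly on later days. The p-values between trained groups are therefore a description and no support for any of the 3 genes. None of the 3 genes passed the limma test between trained groups after Benjamini-Hochberg adjustment over all genes. From 2 to 30 days Nr4a3 differed by 0.89 on the log2 scale (SE 0.42, adjusted p = 0.159), Nr4a2 by 0.59 (SE 0.21, adjusted p = 0.060) and Nr4a1 by -0.52 (SE 0.38, adjusted p = 0.380), in a contrast that called 15% of all genes. From 2 to 10 days, where 1.93% of genes were called, the difference of Nr4a3 was 0.79 (SE 0.42, adjusted p = 0.391), that of Nr4a2 0.25 (SE 0.21, adjusted p = 0.629) and that of Nr4a1 -0.05 (adjusted p = 0.968). From 10 to 20 days (0.17% of genes called) Nr4a2 differed by 0.79 (SE 0.21, adjusted p = 0.133), Nr4a3 by 0.14 (adjusted p = 0.973) and Nr4a1 by 0.09 (adjusted p = 0.983). From 20 to 30 days (0.0357% called) Nr4a1 differed by -0.56 (SE 0.38, adjusted p = 0.773), Nr4a2 by -0.45 (SE 0.21, adjusted p = 0.711) and Nr4a3 by -0.04 (adjusted p = 0.993).

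The 2 muscles of a rat are paired by its number, and the within-animal difference was followed over time as well. These differences are the values by which the genes were chosen, and Nr4a2 passed the filter through trained muscles alone, so their changes are given with no test. The mean within-animal difference of Nr4a3 was 3.40 at 2 days and 4.99 at 30 days, 1.59 more (SE 0.35), and over the same time the contralateral mean was 2.53 and then 1.13 while the trained mean was 37.3 and then 66.6. For Nr4a2 it was 0.61 and then 1.46, which is 0.85 more (SE 0.21), with contralateral means of 0.331 and 0.0986 and trained means of 1.02 and 2.04. For Nr4a1 the later value was 0.40 larger (SE 0.36). Between neighbouring time points the step from 10 to 20 days was the largest, at 1.54 for Nr4a3, 1.25 for Nr4a2 and 0.73 for Nr4a1. Over this step the contralateral mean of Nr4a3 was 4.65 and then 1.22, and its trained mean 62.9 and then 68.6. For Nr4a2 the contralateral means were 0.695 and 0.241 and the trained means 1.39 and 3.21. For Nr4a1 they were 101.2 and 65.9 in contralateral and 302.9 and 330.0 in trained muscles. From 2 to 10 days the within-animal difference changed by 0.09 for Nr4a3, -0.11 for Nr4a2 and 0.08 for Nr4a1, and from 20 to 30 days by -0.04, -0.28 and -0.42.

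The adjusted p of the trained change from 2 to 30 days depended on the fit. With 8 groups, an alternative added after the data were seen, the same change was past the threshold for Nr4a2 (0.59, adjusted p = 0.0259) and Nr4a3 (0.89, adjusted p = 0.0304). Without rat 1 of the trained group at 2 days it was 0.726 for Nr4a2 (adjusted p = 0.0303), and over all the fits without 1 trained muscle it was 0.513 to 0.726. For Nr4a3 the fits without 1 trained muscle gave 0.599 to 1.184, and none passed (adjusted p from 0.0765 to 0.461). With the values as deposited Nr4a3 differed by 0.56 (adjusted p = 0.349). All these p-values are no support, since trained values entered the choice of genes and Nr4a2 passed the filter through trained muscles alone. Mitochondrial transcripts took 25.3% to 28.8% of the values in trained muscles at 2 days and 40.4% to 44.6% at 30 days, and their part in the trained change was not tested.

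The contralateral muscles were compared among themselves, because a control that moves changes every difference taken from it. Nr4a3 was highest in the contralateral muscles at 10 days, all 3 of which (3.90, 5.94 and 4.11) were above the other 9, a pattern that 0.393% of genes showed. Only this day was set against the rest, and control values entered the choice of genes, so nothing is read from this share. The limma F test over the 4 contralateral groups gave F = 12.6 for Nr4a3 (adjusted p = 0.153), 6.14 for Nr4a2 (adjusted p = 0.345) and 3.07 for Nr4a1 (adjusted p = 0.491). After adjustment 0.0625% of 11195 genes passed, and 10.7% were under 0.05 without it. Nr4a2 was also highest at 10 days on average, but its lowest muscle there (0.484) was below the highest at 2 days (0.555). Without the control muscle of rat 1 at 30 days, which stood apart in its mitochondrial share, F was 10.5, 4.95 and 2.37 for Nr4a3, Nr4a2 and Nr4a1.

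The make-up of the family differed between the arms. In trained muscles it is given by day, and a change of the shares between days was not tested. If the values are per length, which was not checked against transcript lengths, they can be set beside each other. Nr4a1 made up 96.9% ± 1.79 (SD, n = 12) of the summed Nr4a value in contralateral muscles, and 89.5%, 82.5%, 81.8% and 76.1% in trained muscles at 2, 10, 20 and 30 days. Nr4a3 made up 2.79% ± 1.69 (SD, n = 12) in contralateral muscles, with a range of 0.625% to 5.78%. In trained muscles its share was 10.2% ± 2.11 at 2 days, 17.1% ± 3.68 at 10, 17.4% ± 2.16 at 20 and 23.2% ± 1.88 at 30 days (SD, n = 3 each). All 3 trained muscles at 30 days (21.9% to 25.3%) were above all trained muscles of the earlier days, whose highest was 20.5%. Between 20 and 30 days the trained mean of Nr4a3 was 68.6 and then 66.6 (limma, adjusted p = 0.993) and that of Nr4a1 330.0 and then 221.1 (adjusted p = 0.773), and neither change passed. Nr4a2 was at most 1.04% in any muscle.

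The 2 Nr4a1 transcripts did not move in fixed proportion. Nr4a1-202, which starts upstream of Nr4a1-201, made up 18.4% ± 4.63 (SD, n = 12) of Nr4a1 in contralateral muscles, with a lowest, median and highest of 11.2%, 19.4% and 25.8%. In trained muscles it made up 23.6% ± 1.74 (SD, n = 12), with 21.7%, 23.3% and 27.1%. The share was higher in the trained muscle in 10 of 12 rats, and the arms overlapped. Contralateral means were 16.3%, 14.9%, 19.2% and 23.3% at 2, 10, 20 and 30 days beside trained means of 22.2%, 24.4%, 24.1% and 23.7%. At 30 days the arms overlapped fully in this share, with 19.2% to 25.8% and 22.4% to 25.01%. The log2 difference against the 12 controls was 2.24, 2.32, 2.39 and 1.81 for Nr4a1-202 (SE 0.26) and 1.93, 1.83, 1.93 and 1.38 for Nr4a1-201 (SE 0.32). The transcripts share sequence, so reads could be assigned to either by the authors' estimate.

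**Figure D3:**
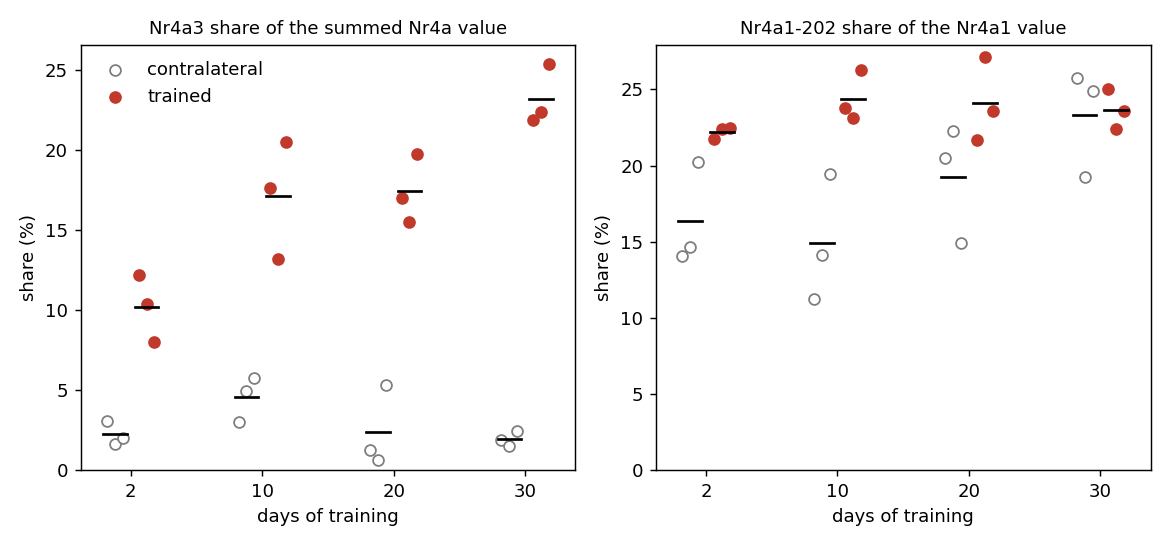
Share in percent of Nr4a3 in the summed Nr4a value (left) and of the transcript Nr4a1-202 in Nr4a1 (right) against days of training, with open circles for contralateral and red circles for trained muscles and black bars at the mean of 3. The share of Nr4a3 in trained muscles has means of 10.2%, 17.1%, 17.4% and 23.2%, and the contralateral shares of Nr4a1-202 reach the trained range at 30 days.

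The genes closest to each member over the 12 within-animal log2 differences were listed as a description. The measure is the root mean square distance over 12 rats, which weighs size as well as shape, and all genes share the same muscles. For Nr4a1 the nearest was Ddit3, a stress-induced transcription factor (0.358), then Sik1, a salt-inducible kinase (0.438), Sdc4, a cell-surface proteoglycan (0.480), Id4, an inhibitor of DNA binding (0.487), and Hk2, the hexokinase of insulin-sensitive tissue (0.523). For Nr4a2 they were Scd, a fatty acid desaturase (0.383), Adamts9, a matrix protease (0.438), Coq10b of coenzyme Q function (0.449), the lectin Lgals9 (0.450) and the complement gene C2 (0.456). For Nr4a3 they were farther away, with the inducible chaperone Hspa1b (1.11), the early gene Egr1 (1.20), Xirp1 of the muscle attachment sites (1.37), the clock repressor Ciart (1.39) and the stress factor Atf3 (1.40). The members were farther from each other than from these genes, at 0.918 between Nr4a1 and Nr4a2, 2.47 between Nr4a1 and Nr4a3 and 3.19 between Nr4a2 and Nr4a3.

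The other nuclear receptors were listed beside the Nr4a genes, among them the retinoid X receptors that partner Nr4a1 and Nr4a2. Of 45 other receptors listed, 35 were in the table and 27 passed the filter. At 2 days 1 was higher and 8 were lower in trained muscle, at 10 days 1 and 8, at 20 days 1 and 4, and at 30 days 6 were lower and the other 21 did not pass. Their median log2 differences were -0.26, -0.18, -0.11 and -0.09, beside -0.01, -0.03, -0.03 and -0.01 over all genes. Of all genes limma called 28.9% at 2 days (15.4% higher, 13.5% lower), 28.9% at 10 days (15.6% and 13.3%), 21.4% at 20 days (11.7% and 9.64%) and 20.6% at 30 days (11.1% and 9.46%). Of the receptors it called 33.3%, 33.3%, 18.5% and 22.2% in either direction, shares near those of all genes, so the total counts are no result about the list. By direction more receptors were lower than higher at each time point, while more of all genes were higher than lower. This difference in direction was not tested.

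Rxra fell by 0.65, 0.76, 0.71 and 0.77 at 2, 10, 20 and 30 days, from a contralateral mean of 35.03 to trained means of 19.9 to 21.8. Rxrg, the retinoid X receptor of muscle, fell by 0.76, 0.79, 0.36 and 0.35, from 34.03 to 19.2 at its lowest. Both passed at all 4 time points with adjusted p between 5.64e-06 and 0.0255. Nr1h3, the oxysterol receptor, fell by 0.87 and 0.95 at 2 and 10 days, and Nr1d1, the clock repressor Rev-erb alpha, by 1.27 at 10 days. The retinoic acid receptor Rara was the receptor that rose, by 0.50 at 2 days (adjusted p = 0.0362), 0.51 at 10 days (adjusted p = 0.0317) and 0.57 at 20 days (adjusted p = 0.0226). At 20 days Thrb, a thyroid hormone receptor, fell by 0.47, and at 30 days Ppard, a fatty acid sensor, fell by 0.63 and Rxrb by 0.52.

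Among the other receptors 14 of 27 passed at no time point, among them Esrra, Ppara and Pparg. With the rat as a block 3 receptors passed at 20 days and 2 at 30 days. In that fit Rxrg at 20 and 30 days (adjusted p = 0.187 and 0.182), Rara at 20 days (0.404, adjusted p = 0.0548) and Ppard and Rxrb at 30 days (adjusted p = 0.110 and 0.104) did not pass. Nr1d1 was at -0.20 at 10 days (adjusted p = 0.579) and fell by 1.13 at 2 days (adjusted p = 0.00274), when measured against the controls of the same rats. The number also fell to 3 without rat 2 of the trained group at 2 days, to 1 and 3 without rats 1 and 2 at 20 days and to 3 without rat 3 at 30 days.

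**Figure D4:**
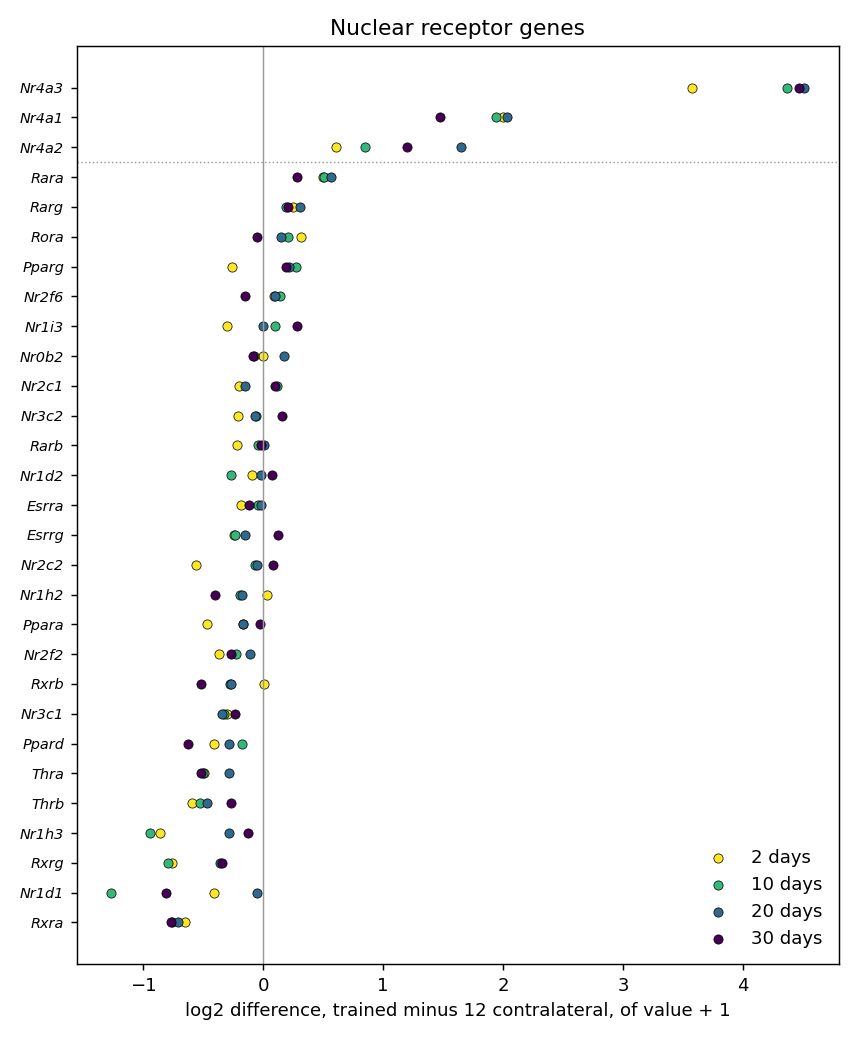
Log2 difference of value + 1, trained minus 12 contralateral muscles, for 26 of the 27 other nuclear receptors and, above the dotted line, the 3 Nr4a genes, with 1 point per time point. The Nr4a genes lie between 0.61 and 4.51, and the plotted other receptors between -1.27 and 0.57.

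Of 17 coactivators and corepressors that Nr4a receptors can work with, all in the table and past the filter, 3 were higher and 3 lower at 2 days, 3 and 3 after 10 days, 2 and 2 after 20 days and 1 and 2 after 30 days. That is 35.3%, 35.3%, 23.5% and 17.6% of the list beside 28.9%, 28.9%, 21.4% and 20.6% of all genes, so the counts are no result about the list. Ppargc1a, the coactivator of mitochondrial biogenesis and itself responsive to exercise, rose at all 4 time points by 0.69, 1.70, 1.03 and 1.41 (SE 0.23, adjusted p = 5.28e-06 at 10 days). The deacetylase Hdac1 rose by 0.41, 0.46 and 0.46 at 2, 10 and 20 days. The mediator subunit Med1 fell by 0.54 at 2 days, Park7, a redox-sensitive chaperone, fell by 0.47 at 10 days and 0.31 at 30 days, and the coactivator Ncoa1 fell by 0.31 and 0.32 at 20 and 30 days. Median log2 differences were between -0.10 and 0.05, and 10 of 17 genes passed at no time point. With the rat as a block 2, 2, 2 and 1 genes passed in all, and Hdac1 (adjusted p = 0.0607, 0.0502 and 0.106), Med1 at 2 days (0.253), Ncoa1 at 20 and 30 days (0.0575 and 0.0927) and Park7 at 30 days (0.122) did not. Without rat 2 or 3 of the trained group at 2 days 1 and 2 passed, without rat 1 or 2 at 10 days 2 and 3, without rat 1 or 3 at 20 days 1 and 2, and without rat 1 or 2 at 30 days 1 and 1.

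Factors that act upstream of the Nr4a genes include cyclic AMP response factors, Mef2 proteins, class IIa deacetylases, calcineurin and calcium/calmodulin kinases. Of 38 listed, 37 were in the table and 35 were tested. At 2 days 6 were higher and 7 lower, at 10 days 6 and 5, at 20 days 2 and 6 and at 30 days 1 and 5, with medians of -0.03, 0.03, -0.12 and -0.01. The shares called, 37.1%, 31.4%, 22.9% and 17.1%, were near those of all genes (28.9%, 28.9%, 21.4% and 20.6%) and are no result about the list. Sik1, a kinase induced by cyclic AMP that restrains its coactivators, rose at all 4 time points by 1.36, 1.67, 1.91 and 1.53 (SE 0.23, largest adjusted p = 8.37e-05), from 0.954 to between 3.88 and 6.13.

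Ppp3cb, a catalytic subunit of calcineurin, fell by 0.95, 0.75, 0.71 and 0.38, from 81.7 to 42.7 at 2 days. Camk2g fell by 0.67, 0.62, 0.47 and 0.49, and Camk2a, another calmodulin-dependent kinase subunit, by 0.84 at 20 days and 0.83 at 30 days. Mef2c rose by 0.64 at 10 days (adjusted p = 1.97e-05), from 111 to 173, and the acetyltransferase gene Ep300 fell by 0.75 at 2 days. Creb1, Crem, Crtc1, Mef2a, Mef2d, Hdac4 and Hdac5 were among 17 genes that passed at no time point. With the rat as a block 7 passed at 2 days and 5 at 20 days, and Ep300 at 2 days did not (-0.28, adjusted p = 0.491). The number was 8 without rat 2 of the trained group at 2 days, 6 without rat 2 at 10 days, 5, 4 and 5 without rats 1, 2 and 3 at 20 days and 3 without rat 2 at 30 days.

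Genes of glucose, glycogen and lipid use that have been named as responsive to Nr4a receptors in muscle moved in both directions. Of 22 listed, 21 were tested, and 3 were higher and 10 lower at 2 days, 4 and 7 after 10 days, 3 and 6 after 20 days and 1 and 5 after 30 days. Their medians were -0.41, -0.27, -0.06 and -0.11, and 61.9%, 52.4%, 42.9% and 28.6% of them were called beside 28.9%, 28.9%, 21.4% and 20.6% of all genes. Hk2 rose at all 4 time points by 1.44, 1.42, 1.82 and 1.47 (SE 0.15, largest adjusted p = 3.06e-07), from 25.7 to between 71.8 and 93.1.

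The glycogen-breakdown genes on the list fell at all 4 time points. Phkg1, the catalytic subunit of phosphorylase kinase, fell by 1.27, 1.06, 0.88 and 0.71, its regulatory subunit Phka1 by 0.95, 0.61, 0.65 and 0.53, and muscle glycogen phosphorylase Pygm by 0.71, 0.72, 0.59 and 0.57. Gpd1, the cytosolic glycerol-3-phosphate dehydrogenase, fell by 1.87, 1.48, 0.81 and 1.01, from 323.8 to 98.4 at 2 days. Ucp3, a mitochondrial carrier, fell by 1.78 at 2 days (adjusted p = 0.000828). Prkag3, the muscle gamma subunit of AMP-activated kinase, was at -0.17 at 2 days (adjusted p = 0.521) and fell by 1.15, 1.94 and 1.97 at 10, 20 and 30 days. Slc2a4, the insulin-responsive glucose transporter, fell by 0.29 at 2 days and rose by 0.37 at 20 days. With the rat as a block Ucp3 at 2 days was at -0.82 (adjusted p = 0.0718) and Slc2a4 at 2 days at -0.38 (adjusted p = 0.0627), and neither passed. Without rat 1 of the trained group at 10 days 7 genes passed in place of 11.

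Immediate early genes, the class to which the Nr4a genes belong, rose with training in most cases. Of 30 listed, 27 were in the table and 25 were tested, and 21 were higher at 2 days, 22 at 10, 19 at 20 and 15 at 30 days. The other genes did not pass, except that Klf2, a flow-responsive factor, fell by 0.96 at 30 days (with the rat as a block -0.69, adjusted p = 0.0910). Their medians were 1.89, 1.73, 1.07 and 1.03, beside -0.01, -0.03, -0.03 and -0.01 over all genes. In either direction 84%, 88%, 76% and 64% of them were called, beside 28.9%, 28.9%, 21.4% and 20.6% of all genes. Of all genes 15.4%, 15.6%, 11.7% and 11.1% were called higher. Some listed genes were on average below the filter value of 1 in contralateral muscles, such as Dusp2 (0.198) and Fosb (0.496). Such genes pass the filter mainly through muscles where they are high, so the counts and shares are a description and no support. The Nr4a3 differences of 3.58, 4.37, 4.51 and 4.47 stand beside 5.53, 5.71, 4.68 and 3.98 for Atf3, and 4.76, 4.22, 3.96 and 3.25 for Egr1. Fos rose by 4.30 at 2 days, the phosphatase Dusp2 by 3.65 at 10 days, Fosb by 3.40 at 20 days and Csrnp1 by 2.76 at 30 days. In all, 15 of 25 were higher at all 4 time points, and Dusp1 passed at none. The comparisons share the 12 controls, and how Nr4a3 and these genes differ over time was not tested.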

How the data were processed

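Poly-A libraries were made with a strand-specific kit. After quality trimming the authors used STAR, run in Partek Flow, with the Rnor_6.0 assembly, and Ensembl transcripts were quantified. What the authors deposited are length-corrected TPM-type values per transcript, with an equal total in every sample, and a gene-level table of signal values for 4635 genes that lists Nr4a1 and Nr4a3. Columns of that table with the authors' comparisons (p-values, ratios) were not used. Depth and the precision it gives are unknown.

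Each muscle's values were rescaled by its median ratio to the geometric mean over 16230 transcripts that no muscle lists at 0 (factors of 0.7784 to 1.1368), summed per gene and analysed as log2(value + 1) for genes at 1 or more in at least 3 muscles (11196 genes). limma 3.58.1 in R 4.3.3 was fitted with 5 groups (12 contralateral, 3 trained per time point), two-sided, with Benjamini-Hochberg adjustment over all genes and a threshold of 0.05. An F test compared the 4 contralateral groups in a fit of their own. The fit was tested on simulated data. Fold changes on this scale understate the change of low genes. The fit with 5 groups has no term for the rat and pools the controls of 4 time points. Its p-values rest on the spread between muscles within these groups, which for the controls also holds any difference between time points. GEO's design text gives 4 rats per time point, and 3 per time point were analysed here.

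Muscles were paired by the rat number in the labels. Deviations from the group means had a median r of 0.174 within the 12 rats (8 above 0.1) and -0.006 between rats, and 0 of 276 muscle pairs were identical. Named genes are the members, the 5 genes nearest to each over the within-animal differences and, per list and time point, at most the 3 largest differences past the threshold. Slc2a4, Klf2, Rara at 2 and 10 days, and genes said to have passed at no time point or at all 4 are named in addition, after their values were seen. The members and lists were chosen with earlier results of these data known. For 1 gene of the nuclear receptor list, which is in the counts and medians, no value is reported here. Alternatives covered the values as deposited, 0.1 added in place of 1, no filter, a fit per transcript, the gene-level table, time-matched controls, the rat as a block, and each replicate left out. Python 3.11.15 served for tables (pandas 2.3.3, numpy 2.4.6) and figures (matplotlib 3.10.9).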

Additional observations from a re-analysis of the deposited data

Results flagged for a closer look

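The within-animal difference between trained and contralateral muscle was larger at 30 than at 2 days by 1.59 (log2) for Nr4a3 and by 0.85 for Nr4a2. A limma test of the difference itself over all genes picked out these 2 of the 3 Nr4a genes, but it rests on the contrast by which the genes were chosen, and Nr4a2 passed the filter on low values through 10 trained and 0 contralateral muscles, so it is no support and its p-values are not given. The ratios were 10.7 to 19.05 at 2 days and 40.6 to 78.2 at 30 days for Nr4a3, and 1.53 to 11.9 and 17.9 to 23.5 for Nr4a2. Trained muscles alone differed by 0.89 (adjusted p = 0.159) for Nr4a3 and 0.59 (adjusted p = 0.060) for Nr4a2. These p-values are no support either, since trained values entered the choice of genes. The filter limits the p of Nr4a2 here too. No outlier test was run, as the trained groups hold 3 muscles.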

How the results depend on the processing

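Across 192 alternative fits of changes over time and of the contralateral F test, 178 kept direction and side of the threshold. Of the rest, 5 passed where the reported value had not, and 9 changed sign with no call in either fit. With the rat as a replicate block such a fit follows the within-animal difference, which is not the change between trained groups. Block fits are in all these counts. The 5 that passed are changes of Nr4a2 and Nr4a3 from 2 to 30 days, block fits among them, and are no support. Of 116 alternative values of the trained minus contralateral difference none changed sign and 21 moved by more than the replicate SD. Of 200 alternative list counts 43 moved by over 1.5 times, and those of the immediate early genes did not. The causes were not tested.

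With time-matched controls or the rat as a replicate block, which give the same estimates, Nr4a1 at 30 days was 1.93 in place of 1.47, Nr4a2 0.495 and 1.46 at 10 and 30 days in place of 0.85 and 1.20, and Nr4a3 3.49 and 4.99 in place of 4.37 and 4.47. With 0.1 added in place of 1, Nr4a2 was 1.575, 2.01, 3.12 and 2.53 at 2, 10, 20 and 30 days, and Nr4a3 4.14, 4.95 and 5.05 at 2, 10 and 30 days. In the gene-level table Nr4a3 was 4.26, 5.12, 5.23 and 5.185.

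From 2 to 30 days, Nr4a2 changed by 0.85 and Nr4a3 by 1.59 with the rat as a replicate block, a fit on the differences by which the genes were chosen and so given with no p, and by 0.59 (adjusted p = 0.0259) and 0.89 (adjusted p = 0.0304) with 8 groups, an alternative added after the data were seen. With a trained replicate left out that change was 0.513 to 0.726 for Nr4a2 (adjusted p = 0.0303 without rat 1 at 2 days, otherwise up to 0.201). For Nr4a3 it was 0.599 to 1.184 (adjusted p from 0.0765 to 0.461). All these p-values are no support, since trained values entered the choice of the genes and Nr4a2 passed the filter through trained muscles alone. Signs changed with the block for Nr4a1 (0.081 from 2 to 10 days and 0.40 from 2 to 30 days) and Nr4a2 (-0.11 from 2 to 10 days), and with the values as deposited for Nr4a1 from 10 to 20 days (-0.031). With a replicate left out Nr4a1 ranged from -0.177 to 0.086 from 2 to 10 days and from -0.107 to 0.264 from 10 to 20 days, and Nr4a3 from -0.022 to 0.311 from 10 to 20 days and from -0.106 to 0.059 from 20 to 30 days.

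With the rat as a replicate block 3 and 2 other nuclear receptors passed at 20 and 30 days, 7 and 5 upstream factors at 2 and 20 days, and 2, 2, 2 and 1 cofactors at 2, 10, 20 and 30 days. With time-matched controls 5, 2 and 1 receptors passed at 10, 20 and 30 days, 6 and 3 upstream factors at 2 and 30 days, 1, 2, 2 and 1 cofactors, and 5 metabolic genes at 20 days. In the fit per transcript 2 receptors and 4 upstream factors passed at 20 days. With the values as deposited 4 and 10 upstream factors and 2 and 7 cofactors passed at 20 and 30 days.

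With a replicate left out the receptors numbered 3 to 10 at 2 days, 1 to 5 at 20 days and 3 to 7 at 30 days. The upstream factors numbered 8 to 13, 6 to 10, 4 to 5 and 3 to 6 at 2, 10, 20 and 30 days, the cofactors 1 to 8, 2 to 4, 1 to 3 and 1 to 2, and the metabolic genes 7 to 11 at 10 days.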
